A study of Homo sapiens with 12 samples.

Results

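The genes described here are 38 genes of NF-kB signalling, of inflammatory cytokines and of the secretory program of senescent cells, measured in A549 cells given cisplatin at its NOEL, a dose with no observed effect on the cells. They were chosen by name: ligands (CXC and CC chemokines, the IL-1 and IL-6 families, TNF, colony stimulating factors and the EGF receptor ligands AREG and EREG), NF-kB subunits and their feedback inhibitors, the adhesion receptor ICAM1, and secreted proteases and binding proteins with the receptor PLAUR. Of the 38 genes, 34 had a value of their own among the 14232 genes tested. CXCL1 shared its transcript cluster, the unit in which an exon array is summarized per gene, with CXCL2, IL24 shared its cluster with FCMR, and no cluster was paired with CSF2 or AREG alone. For genes with more than 1 cluster the values are those of the brightest.

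A549 is a lung adenocarcinoma cell line that keeps wild-type p53, and cisplatin is a platinum drug that crosslinks DNA. Cells were seeded at 5000 cells per well and on the next day were given cisplatin at its 10% inhibitory concentration (IC10) or left untreated, and RNA was taken 24 or 48 h later. The 4 conditions were cisplatin at 48 h, untreated at 48 h, cisplatin at 24 h and untreated at 24 h, with 3 Affymetrix exon arrays each, and all 12 arrays were of the same line at the same seeding density. Values are log2 signals normalized by the authors with RMA (robust multi-array average), so that a difference of 1 is a doubling, and their error is the spread between arrays, whose number limits the precision. The study's methods state 3 independent experiments, but the labels do not say which arrays came from the same experiment, so the p-values measure only the spread between these arrays. RNA came from whole wells, in which fewer cells making a transcript and less of it per cell cannot be told apart.

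NF-kB is a family of dimeric transcription factors, made from RELA, RELB, REL and the processed products of NFKB1 and NFKB2, that inhibitors such as IkB-alpha (NFKBIA) hold in the cytoplasm. IL-1, TNF or DNA damage can activate the IKK kinases, which mark IkB-alpha for degradation, and the released dimers switch on chemokines, cytokines and their own inhibitors NFKBIA and TNFAIP3. Cells that stay arrested after DNA damage can acquire a senescence-associated secretory phenotype, in which IL1A, IL6, CXCL8, other chemokines, matrix metalloproteinases, plasminogen activator and insulin-like growth factor binding proteins are secreted, in large part under NF-kB control.

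The promoters of the feedback inhibitors and of several CXC chemokines, in which kB motifs were found close to the start, are shown first. RefSeq promoter sequences of build GRCh38.p14 were at hand for 28 of the 38 genes. Within 250 bases before the start and on either strand, the kB consensus decamer was found in 12 of these 28 (42.9%), against 11.8% of 27305 genes, and the looser motif GGAANNNCC in 15 of 28 (53.6%), against 20.2%. The motif TGANTCA, a form of the AP-1 element, was found in 5 of 28 (17.9%), against 8.06% of all genes. All 12 genes with the decamer also held GGAANNNCC, and the motifs overlap. The genes were chosen by name around NF-kB, so a larger share of kB motifs than over all genes could be foreseen and is no test. The stretch from -130 to -31 relative to the start is given 5′ to 3′ on the gene's strand, with matches to the decamer or to GGAANNNCC in capitals, for the inhibitors and for the subunit gene NFKB2, at the start that has the motif in this stretch:
NFKBIA, chr14:35404780-35404879, minus strand: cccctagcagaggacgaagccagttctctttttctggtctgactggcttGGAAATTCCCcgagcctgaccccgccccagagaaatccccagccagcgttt
TNFAIP3, chr6:137867129-137867228, plus strand: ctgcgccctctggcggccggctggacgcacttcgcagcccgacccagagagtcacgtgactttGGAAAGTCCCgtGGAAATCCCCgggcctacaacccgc
NFKB2, chr10:102394448-102394547, plus strand: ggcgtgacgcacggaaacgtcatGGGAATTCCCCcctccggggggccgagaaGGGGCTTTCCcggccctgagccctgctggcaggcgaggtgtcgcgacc

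The same stretch is given for 5 CXC chemokines and IL6, since CXCL5, CXCL6, CXCL2 and CXCL3 carry the same run of letters, a decamer on each strand that overlap, while CXCL8 holds GGAANNNCC but not the decamer:
CXCL5, chr4:73998708-73998807, minus strand: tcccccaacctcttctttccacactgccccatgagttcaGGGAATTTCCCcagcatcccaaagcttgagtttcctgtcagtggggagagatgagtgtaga
CXCL6, chr4:73836548-73836647, plus strand: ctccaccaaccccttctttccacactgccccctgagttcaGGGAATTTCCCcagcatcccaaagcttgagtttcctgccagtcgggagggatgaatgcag
CXCL2, chr4:74099226-74099325, minus strand: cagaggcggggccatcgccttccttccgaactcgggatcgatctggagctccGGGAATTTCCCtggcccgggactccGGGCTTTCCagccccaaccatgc
CXCL3, chr4:74038720-74038819, minus strand: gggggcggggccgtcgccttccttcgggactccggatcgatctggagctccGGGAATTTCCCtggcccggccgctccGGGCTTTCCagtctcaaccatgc
CXCL8, chr4:73740439-73740538, plus strand: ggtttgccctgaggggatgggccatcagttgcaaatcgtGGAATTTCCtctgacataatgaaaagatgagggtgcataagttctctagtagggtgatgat
IL6, chr7:22727070-22727169, plus strand: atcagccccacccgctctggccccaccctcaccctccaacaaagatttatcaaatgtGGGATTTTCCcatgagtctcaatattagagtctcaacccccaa

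Of the listed genes, 8 lie within 705 kb of chromosome 4 of GRCh38.p14, from CXCL8 (window start at base 73740319) to AREG (window end at base 74445185). They are CXCL8, CXCL6, CXCL1, CXCL5, CXCL3, CXCL2, EREG and AREG, and genes that are not listed were not looked up in this stretch. A match is a description of letters and not of a bound site.

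Before the differences, the level of each gene sets what could be seen. The arrays came without detection calls, so the log2 signals were set against 24 genes of other tissues (such as PRM1 of sperm, MYL2 of heart muscle and CRYAA of the lens) whose upper quartile was 7.37 and whose highest was 9.23. Of the 34 genes, 14 lay below that upper quartile: CXCL2, CXCL3, CXCL6, CXCL8, CCL20, CCL28, IL1A, IL1B, IL6, IL15, TNF, ICAM1, MMP1 and MMP10. Another 14 lay above the highest of those genes, and TNFAIP3, RELB, IL32, CCL5, CXCL16 and IL11 lay between the upper quartile and the highest. Probes differ in their response, so levels of different genes were not ranked against each other, and the comparison says only that the signals of IL1A, IL1B, IL6 and CXCL8, the cytokines most often used to mark the secretory phenotype, were in the range of genes of other tissues.

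The label of the treatment was compared with 8 p53 target genes. They were 0.44 to 1.14 higher on the log2 scale in cisplatin-treated cells over both times. CDKN1A (1.14 ± 0.10 SE, adjusted p = 0.000254), EDA2R (1.02) and FAS (0.98) were past the limma threshold of an adjusted p under 0.05. The study lists all of these target genes as over-expressed after cisplatin in its own reading of this array series. Their direction was thus known beforehand, and the comparison is no independent check of the label. Replicate 3 of the untreated 24 h arrays was unlike the rest, with a mean correlation of 0.972 to them across transcript clusters, where the other 11 arrays had 0.987 to 0.990. Of the epithelial markers, keratin 8 (KRT8) was the brightest at 13.6 and EPCAM the dimmest at 7.24, the 3 measured alveolar type II markers were between 6.73 and 7.68, and the leukocyte marker PTPRC was at 3.79, while CD68, a lysosomal protein of macrophages that other cells also make, was at 10.8. The endothelial markers were all below 7.37 and the fibroblast markers ranged from 4.12 (DCN) to 8.40 (COL1A1). No list of markers of another cell type had a gene past the adjusted threshold for treatment or time.

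The first comparison asked whether the NOEL of cisplatin moved these genes. Over both times, 0 of 34 passed an adjusted p under 0.05 in limma, where 4 of all 14232 genes did (0.0281%), and 1 of 34 (IGFBP7) had an unadjusted p under 0.05, where 3.33% of all genes did. The differences of cisplatin-treated minus untreated cells ran from -0.19 (MMP1) to 0.38 (IGFBP7), with a median of 0.03 against 0.01 over all genes. Of the 34 differences, 19 were positive (55.9%, against 53.8% of all genes). The 95% interval lay within a 1.5-fold change in either direction for 32 of 34 genes (96.5% of all genes), the exceptions being CCL2 and IGFBP7. For no gene were the 6 cisplatin arrays all above or all below the 6 untreated arrays (0.218% and 0.0281% of all genes).

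**Figure D1:**
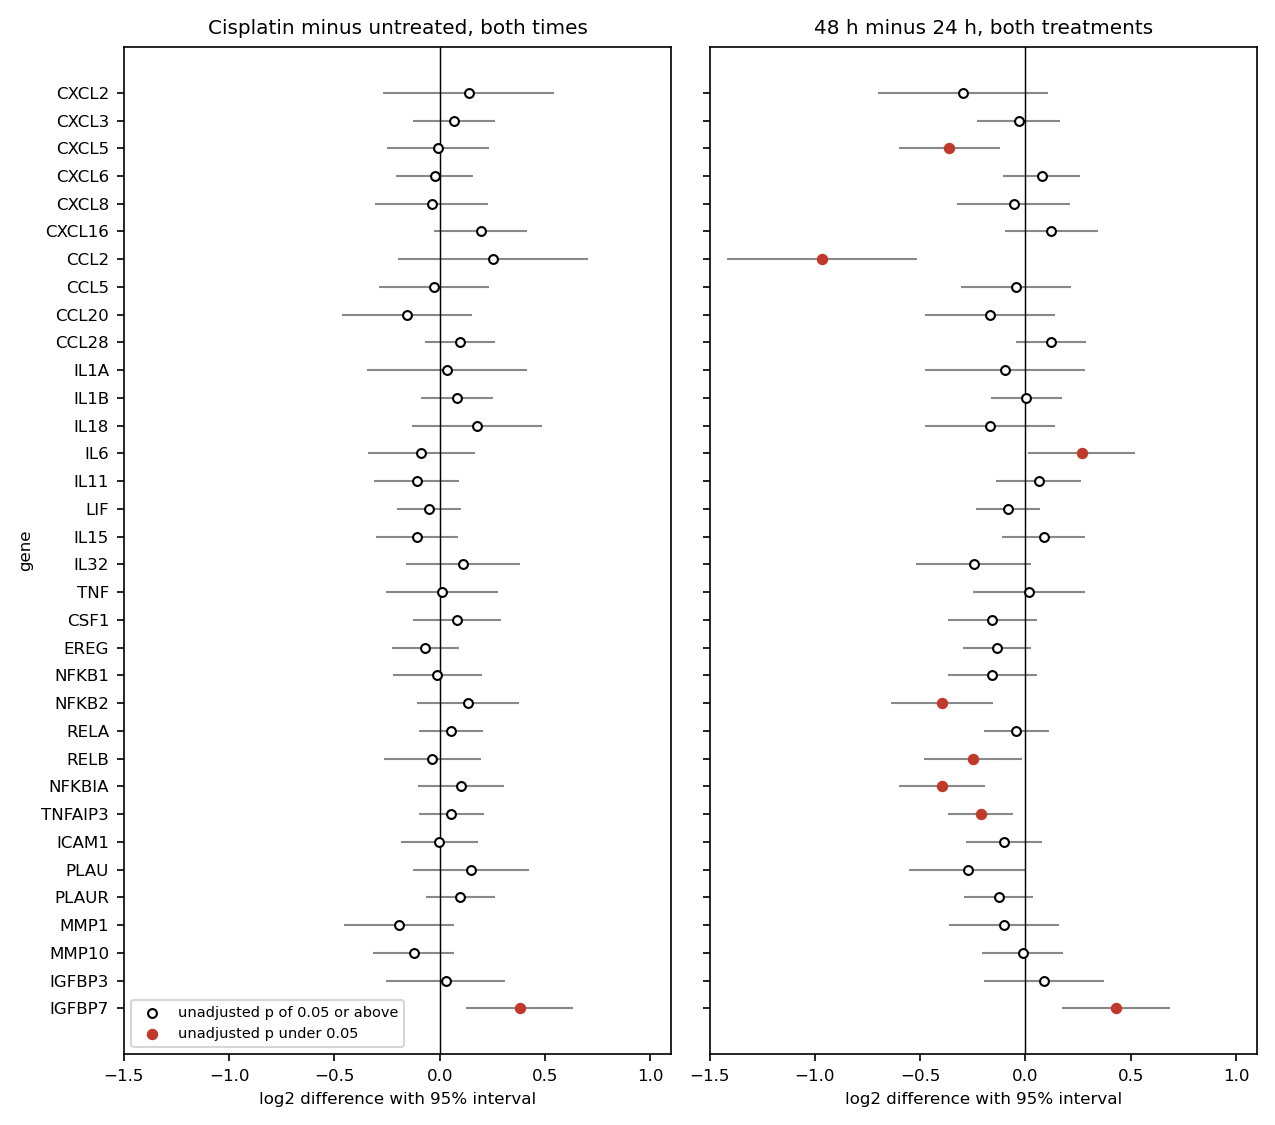
Log2 differences with 95% intervals for the 34 genes, cisplatin-treated minus untreated cells over both times (left) and 48 h minus 24 h over both treatments (right), filled where the unadjusted p is under 0.05. On the left 1 gene is filled, IGFBP7, and most points lie near 0, while on the right 8 are filled, of which 6 lie below 0 and CCL2 lies farthest at -0.97.

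By role, the CXC chemokines (CXCL16, which acts on T cells, and others that attract neutrophils) were as often above as below 0, with differences from -0.04 (CXCL8) to 0.20 (CXCL16) and 3 of 6 positive. The CC chemokines ran from -0.16 (CCL20) to 0.25 (CCL2). IL1A, IL1B and IL18, the IL-1 family, differed by 0.03, 0.08 and 0.18. Among the other interleukins, IL6 differed by -0.09, IL11 by -0.11, LIF by -0.05, IL15 by -0.11 and IL32 by 0.11. TNF differed by 0.01 and CSF1, the growth factor of macrophages, by 0.08. The subunits NFKB1, NFKB2, RELA and RELB differed by -0.01, 0.13, 0.05 and -0.03, and the inhibitors NFKBIA and TNFAIP3 by 0.10 and 0.06. ICAM1 differed by less than 0.01 in size, PLAU by 0.15, its receptor PLAUR by 0.10, MMP1 by -0.19, MMP10 by -0.12 and IGFBP3 by 0.03. None of these had an unadjusted p under 0.05. After quantile normalization the signs of CXCL6, CXCL8, IL6, ICAM1 and IGFBP3 turned, and without untreated 24 h replicate 3 those of CXCL2, CXCL6, CCL5 and IGFBP3.

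Averaged over both times, the inhibitors and the subunits of the canonical pathway differed by 0.10 or less between the treatments. NFKBIA averaged 11.09 ± 0.25 in cisplatin-treated and 10.99 ± 0.28 in untreated cells (SD, n = 6 arrays each). TNFAIP3, the ubiquitin-editing enzyme A20, averaged 7.76 ± 0.18 in cisplatin-treated and 7.70 ± 0.10 in untreated cells. RELA averaged 11.33 ± 0.07 against 11.27 ± 0.10, and NFKB1, the precursor of p50, 9.44 ± 0.19 against 9.45 ± 0.19. All 4 differences were smaller than these SDs, which also hold the difference between 24 and 48 h. At 48 h the differences were 0.11 ± 0.14 (NFKBIA), -0.04 ± 0.10 (TNFAIP3), 0.04 ± 0.11 (RELA) and -0.17 ± 0.13 (NFKB1). At 24 h they were 0.10 ± 0.14, 0.15 ± 0.10, 0.07 ± 0.11 and 0.14 ± 0.13 in the same order (SE, limma). TNFAIP3 and NFKB1 thus had opposite signs at the times, and none had an unadjusted p under 0.05.

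CXCL8 averaged 6.94 ± 0.22 in cisplatin-treated and 6.98 ± 0.24 in untreated cells, and IL6 5.80 ± 0.28 against 5.89 ± 0.24. IL1A, the gene of IL-1 alpha, which acts early in the secretory program, averaged 5.58 ± 0.23 in cisplatin-treated and 5.55 ± 0.45 in untreated cells. IL1B averaged 6.32 ± 0.12 against 6.24 ± 0.10. Since these 4 signals lay in the range of the genes of other tissues, small changes at that level may not have been measurable.

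The shared clusters were read for the genes that had no value of their own. The cluster of CXCL1 with CXCL2 averaged 7.82 in cisplatin-treated and 7.66 in untreated cells (difference 0.16 ± 0.21 SE), and that of IL24 with FCMR 6.07 against 6.13 (difference -0.06 ± 0.08 SE). In neither can the genes be told apart.

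IGFBP7, a secreted binding protein that has been linked to senescence, had the largest difference of the 34 genes. Its log2 values were 11.45, 11.10 and 11.34 on the cisplatin 48 h arrays and 11.22, 10.68 and 10.99 on the untreated 48 h arrays. At 24 h they were 11.01, 10.73 and 10.999 with cisplatin and 10.85, 10.33 and 10.26 without. The untreated 24 h arrays were the lowest group and the cisplatin 48 h arrays the highest, and the ranges of cisplatin and untreated arrays overlapped at both times.

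Over both times IGFBP7 was 0.38 ± 0.12 (SE) higher in cisplatin-treated cells, a 1.30-fold difference with a 95% interval of 0.13 to 0.64 and an unadjusted p of 0.00621 in limma, but an adjusted p of 0.991. At 48 h its difference was 0.33 and at 24 h 0.43 (unadjusted p = 0.0278 in limma, adjusted p = 0.912), and the difference between the times was -0.10 ± 0.25 (SE, limma, adjusted p = 1). Without untreated 24 h replicate 3, the lowest array, the difference at 24 h was 0.32, with an unadjusted p of 0.107 in limma.

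At 48 h alone, 0 of 34 genes passed an adjusted p under 0.05, where 0 of all genes did, and 0 of 34 had an unadjusted p under 0.05 in limma, where 1.15% did. At 24 h alone, 0 of 34 passed, where 1 of all genes did (0.00703%), and IGFBP7 was the only gene with an unadjusted p under 0.05 (3.06% of all genes). The median difference of the 34 genes was -0.01 at 48 h, against -0.02 over all genes, and 0.08 at 24 h, against 0.03. At 48 h 17 differences were positive (50%, against 42.2% of all genes), and at 24 h 24 were (70.6%, against 57.9%). The 95% interval lay within a 1.5-fold change for 25 of 34 genes at 48 h (90.3% of all genes) and for 31 at 24 h (83.5% of all genes).

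**Figure D2:**
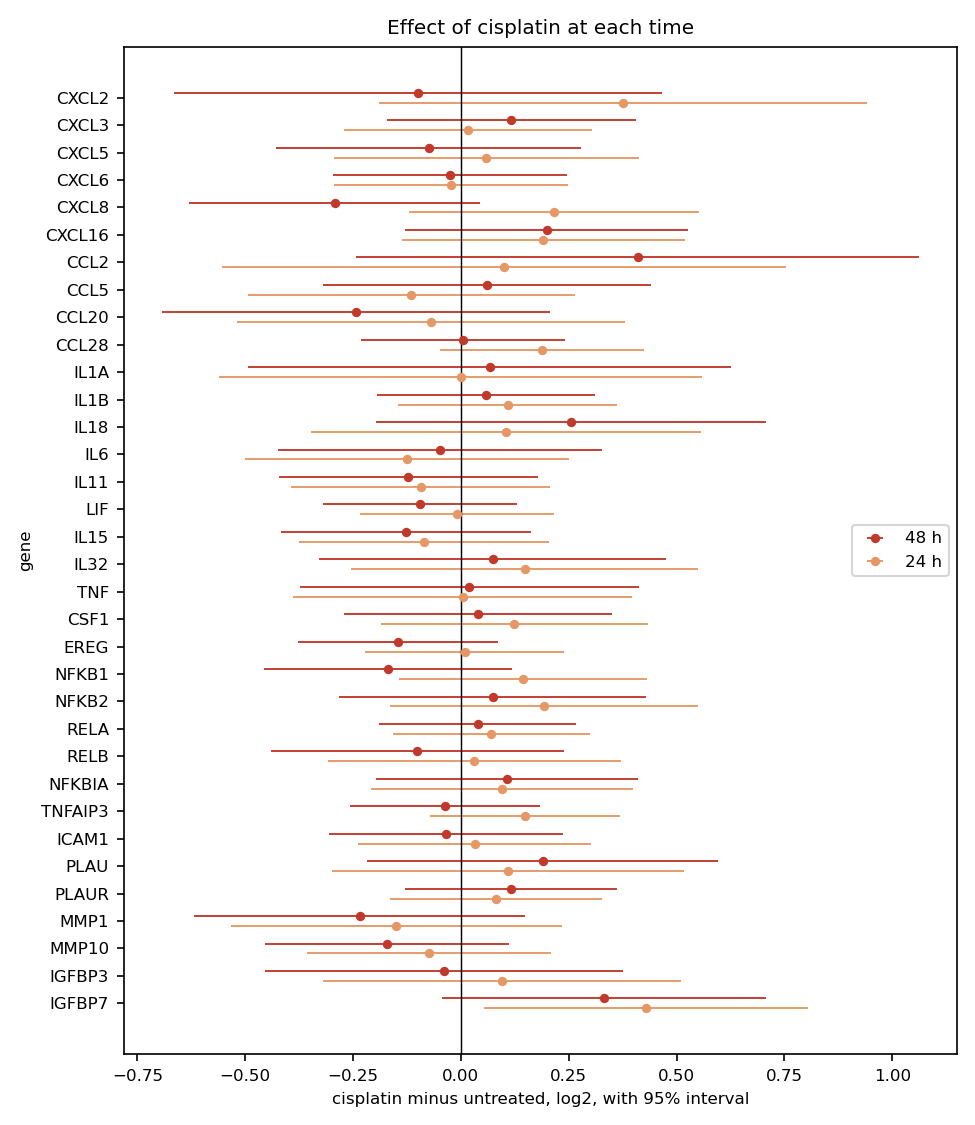
Cisplatin minus untreated on the log2 scale for each of the 34 genes at 48 h and at 24 h, as points with 95% intervals of 3 arrays against 3. IGFBP7 at 24 h is the interval that does not reach 0, and the points of CXCL8 lie on opposite sides of 0, at -0.29 at 48 h and 0.22 at 24 h.

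Where single arrays were compared at 48 h, IL18 lay higher on all 3 cisplatin arrays (9.26, 9.61 and 9.39) than on the untreated arrays (9.17, 9.20 and 9.11). IL15, a growth factor of NK and T cells, lay lower on the cisplatin arrays (6.77, 6.77 and 6.77) than on the untreated arrays (6.96, 6.93 and 6.80). Such non-overlap was found for 3.58% of all genes in the higher and 2.43% in the lower direction, so 1 of 34 genes each (2.94%) is close to the share over all genes. The differences were 0.26 ± 0.21 for IL18 and -0.13 ± 0.14 for IL15 (SE, limma, adjusted p = 0.9995 each), and IL15 was among the genes with a signal in the range of genes of other tissues.

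The cisplatin effect itself was then compared between the times. Of the 34 genes, 0 passed an adjusted p under 0.05 for the difference of effects, as did 0 of all genes, and 1 had an unadjusted p under 0.05 in limma (1.15% of all genes). That gene was CXCL8, the neutrophil chemokine IL-8. Its log2 values were 6.61, 6.76 and 6.999 on the cisplatin 48 h arrays and 6.86, 7.35 and 7.04 on the untreated 48 h arrays, against 7.05, 7.01 and 7.24 with cisplatin and 7.04, 6.998 and 6.61 without at 24 h.

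Cisplatin and untreated arrays overlapped at both times. The effect was -0.29 ± 0.16 at 48 h and 0.22 ± 0.16 at 24 h, and their difference -0.51 ± 0.22 (SE, unadjusted p = 0.0381, adjusted p = 1 in limma). Without untreated 24 h replicate 3, the lowest untreated array, the difference was -0.37 and its unadjusted p 0.0921 in limma.

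The remaining contrast of the design is time, 48 h minus 24 h over both treatments. Here too 0 of 34 genes passed an adjusted p under 0.05 in limma, where 19 of all genes did (0.134%). This count changed under some alternatives, among them a replicate block and array weights, which are given at the end. An unadjusted p under 0.05 was found for 8 of 34 genes (23.5%, against 6.13% of all genes), 6 of them lower at 48 h (17.6%, against 1.26%) and 2 higher (5.88%, against 4.86%). The 6 lower genes were CCL2, NFKBIA, NFKB2, CXCL5, TNFAIP3 and RELB, and the 2 higher ones IGFBP7 and IL6. At the unadjusted p under 0.005 that the methods used, 4 genes remained (CCL2, NFKBIA, NFKB2 and IGFBP7), where 1.5% of all genes did.

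The 34 genes had a median of -0.10 at 48 h relative to 24 h, against 0.02 over all genes, and 10 of 34 differences were positive (29.4%, against 56.8% of all genes). The number of negative differences was 24 in the deposited values, 23 after quantile normalization, 26 after median centring and 21 without untreated 24 h replicate 3. For no gene were all 6 arrays at 48 h above or below all 6 at 24 h (0.836% and 0.155% of all genes). Within the 24 genes that had both a value and a promoter sequence, the median was -0.21 for the 11 with the kB decamer and -0.04 for the 13 without it, given as a description with no test. The 11 include CXCL5, NFKB2, NFKBIA and TNFAIP3, already named above as lower at 48 h. For cisplatin minus untreated the medians with and without the decamer were 0.06 and 0.03 over both times. They were -0.04 and 0.00478 at 48 h, and 0.10 and 0.07 at 24 h. At 48 h 2 of 6 epithelial markers were higher at an unadjusted p under 0.05, CDH1 (0.57 ± 0.13 SE) and EPCAM (0.43 ± 0.11), as was 1 of 4 measured leukocyte markers, CD14 (0.30 ± 0.10). The summed signal of the epithelial markers was 14.53 to 14.74 at 48 h and 14.49 to 14.56 at 24 h on the log2 scale, and that of the leukocyte markers 10.83 to 11.14 at 48 h and 10.85 to 11.23 at 24 h. The part of these markers in the time differences of the 34 genes was not tested.

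**Figure D3:**
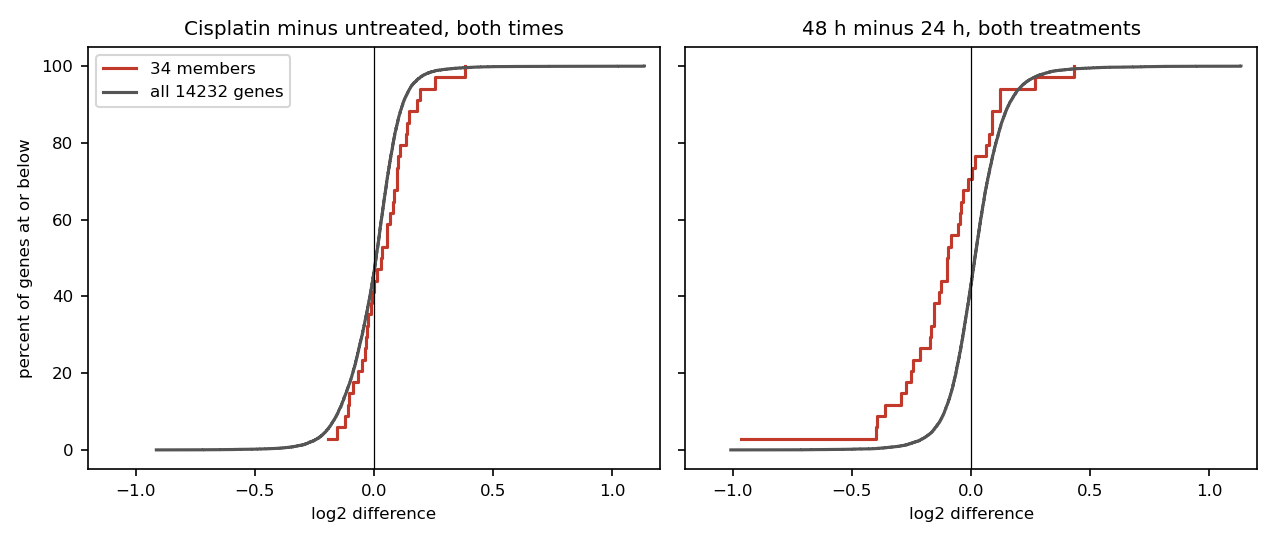
Cumulative percent of genes at or below each log2 difference, for the 34 genes and all 14232 genes, for cisplatin minus untreated (left) and 48 h minus 24 h (right), from -1.2 to 1.2. The curves lie close on the left (medians 0.03 and 0.01) and apart below 0 on the right (medians -0.10 and 0.02).

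CCL2, the monocyte chemokine MCP-1, had the largest difference of the 34. Its log2 values were 9.50, 10.53 and 9.84 on the cisplatin 48 h arrays and 9.34, 9.97 and 9.33 on the untreated 48 h arrays. At 24 h they were 10.02, 11.12 and 11.16 with cisplatin and 10.57, 10.91 and 10.53 without. The untreated arrays did not overlap between the times, whereas cisplatin 48 h replicate 2 was above cisplatin 24 h replicate 1.

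The difference of CCL2, 48 h minus 24 h, was -0.97 ± 0.21 (SE, unadjusted p = 0.000381, adjusted p = 0.111 in limma), a level 0.512 times that at 24 h. Its cisplatin effect was 0.41 ± 0.30 at 48 h and 0.10 ± 0.30 at 24 h, neither with an unadjusted p under 0.05. Leaving out cisplatin 24 h replicate 1 or cisplatin 48 h replicate 2 brought its time difference past the threshold (-1.15, adjusted p = 0.0206, and -1.11, adjusted p = 0.0389, in limma).

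The inhibitors and subunits of NF-kB were next. NFKBIA had log2 values of 10.77, 11.10 and 10.81 with cisplatin and 10.63, 10.93 and 10.81 without at 48 h, against 11.15, 11.37 and 11.33 with cisplatin and 11.29, 11.36 and 10.92 without at 24 h. All arrays at 48 h but cisplatin replicate 2 and untreated replicate 2 were below every array at 24 h. The difference, 48 h minus 24 h, was -0.39 ± 0.10 (SE, adjusted p = 0.161 in limma).

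TNFAIP3 had log2 values of 7.62, 7.66 and 7.53 with cisplatin and 7.68, 7.59 and 7.65 without at 48 h, against 7.93, 7.83 and 7.96 with cisplatin and 7.72, 7.89 and 7.66 without at 24 h. Only untreated 24 h replicate 3 lay within the range of the 48 h arrays. The difference was -0.21 ± 0.07 (SE, adjusted p = 0.469 in limma).

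NFKB2, the precursor of p52 of the non-canonical pathway, had log2 values of 9.50, 10.03 and 9.75 with cisplatin and 9.35, 9.98 and 9.74 without at 48 h, against 10.09, 10.18 and 10.38 with cisplatin and 10.11, 10.04 and 9.92 without at 24 h. The replicate 2 arrays were the highest of each treatment at 48 h and overlapped the 24 h arrays. The difference was -0.40 ± 0.11 (SE, adjusted p = 0.279 in limma).

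RELB, the partner of p52, had log2 values of 8.38, 8.75 and 8.48 with cisplatin and 8.29, 8.96 and 8.66 without at 48 h, against 8.85, 8.94 and 8.76 with cisplatin and 8.72, 8.76 and 8.98 without at 24 h. The times overlapped, with untreated 48 h replicate 2 the second highest of all arrays, and the difference was -0.25 ± 0.11 (SE, adjusted p = 0.764 in limma). NFKB1 differed by -0.16 and RELA by -0.04, neither with an unadjusted p under 0.05. The 4 subunits and both inhibitors were negative in the deposited values, after quantile normalization, after median centring and without untreated 24 h replicate 3.

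**Figure D4:**
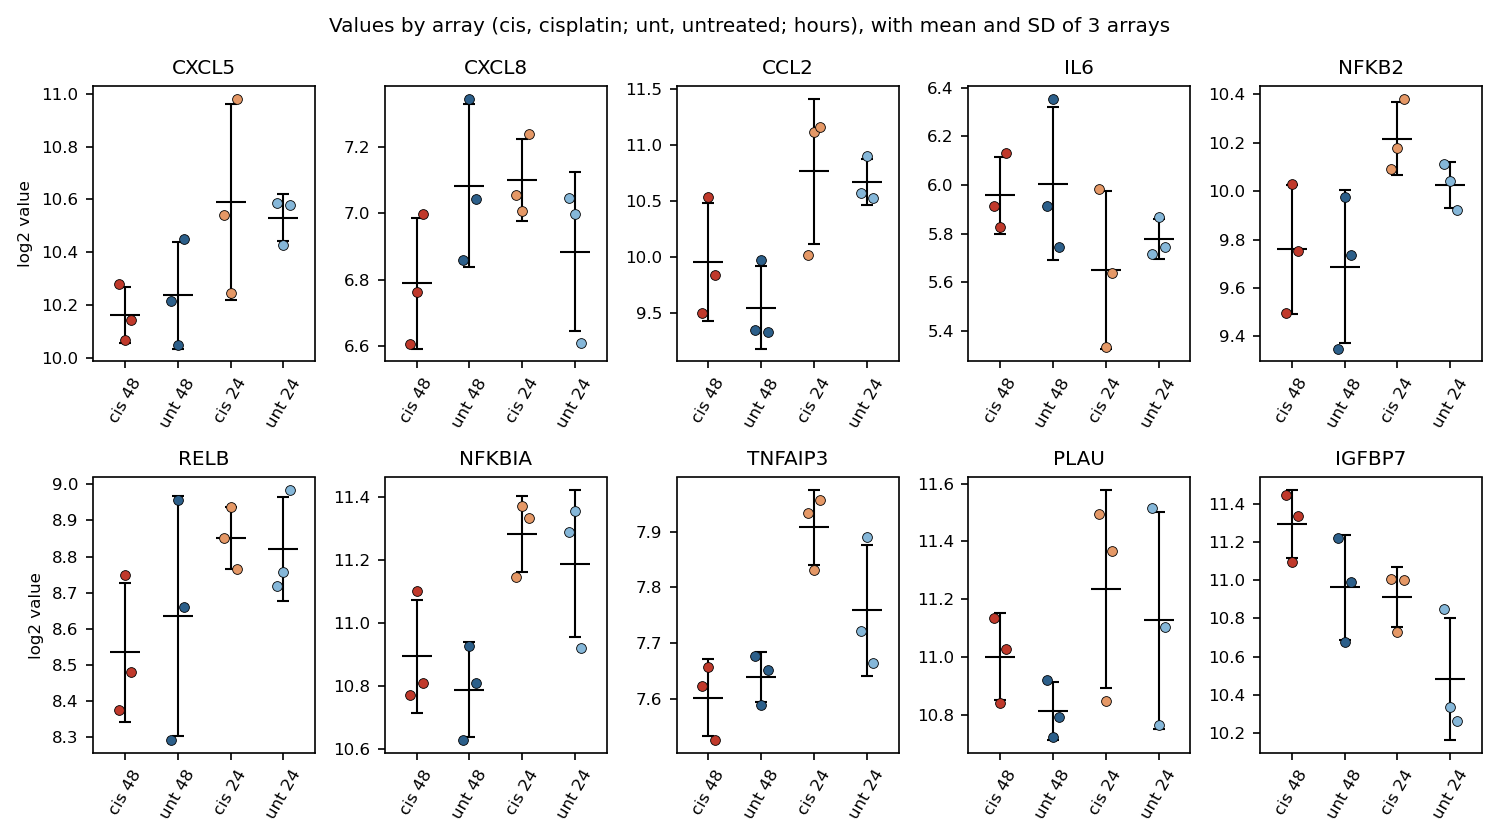
Log2 values by array (points) with the mean and SD of 3 arrays (bars) for 10 genes, in cisplatin-treated (cis) and untreated (unt) cells at 48 and 24 h, with a separate vertical axis per gene that does not start at 0. In CCL2, NFKBIA, NFKB2, TNFAIP3 and CXCL5 both means at 48 h lie below both means at 24 h, and in IGFBP7 the untreated 24 h mean of 10.48 is the lowest.

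Among the chemokines of chromosome 4, CXCL5 had log2 values of 10.28, 10.07 and 10.14 with cisplatin and 10.22, 10.05 and 10.45 without at 48 h. At 24 h it had 10.54, 10.25 and 10.98 with cisplatin and 10.59, 10.43 and 10.58 without. The highest 48 h arrays overlapped the lowest 24 h arrays, and the difference was -0.36 ± 0.11 (SE, adjusted p = 0.360 in limma). CXCL6, whose promoter stretch carries the same kB match, differed by 0.08 ± 0.09 (SE) but had a signal of 6.04, in the range of genes of other tissues.

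Of the other listed genes in this stretch of chromosome 4, CXCL2 differed by -0.30, CXCL3 by -0.03, CXCL8 by -0.06 and EREG, an EGF receptor ligand, by -0.13. None had an unadjusted p under 0.05. The cluster shared by CXCL1 and CXCL2 differed by -0.23. The listed genes measured in this stretch thus ran from -0.36 to 0.08 between the times.

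IL6 was the only cytokine with a higher value at 48 h among the 8 genes. Its log2 values were 5.91, 5.83 and 6.13 with cisplatin and 5.91, 6.36 and 5.75 without at 48 h, against 5.98, 5.33 and 5.64 with cisplatin and 5.72, 5.87 and 5.75 without at 24 h. The times overlapped, and the difference was 0.27 ± 0.12 (SE, adjusted p = 0.788 in limma). A second, dimmer cluster of IL6 differed by -0.12 ± 0.13 (SE), the other way, and the mean of both clusters by 0.07.

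PLAU, the urokinase plasminogen activator, had log2 values of 11.14, 10.84 and 11.03 with cisplatin and 10.92, 10.72 and 10.79 without at 48 h, against 11.49, 10.85 and 11.37 with cisplatin and 11.51, 10.76 and 11.10 without at 24 h. Replicate 2 was the lowest array in each of the 4 conditions. The difference between the times was -0.27 ± 0.13 (SE, unadjusted p = 0.0513, adjusted p = 0.818 in limma). PLAUR differed by -0.13.

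IGFBP7 was 0.43 ± 0.12 (SE) higher at 48 h (adjusted p = 0.237 in limma), against the direction of most of the 34 genes. IGFBP3, a p53-responsive binding protein of insulin-like growth factors, differed by 0.09 ± 0.13 (SE). Its values grouped by replicate number: the replicate 2 arrays of all 4 conditions were between 11.05 and 11.11, and the other 8 arrays between 10.45 and 10.86, which was seen for no other of the 34 genes.

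The other interleukins differed between the times by values from -0.25 (IL32) to 0.09 (IL15) beside IL6, and IL1A and IL18 by -0.10 and -0.17. TNF differed by 0.02, CSF1 by -0.16, MMP1 by -0.10, MMP10 by -0.01 and ICAM1 by -0.10. Of the remaining chemokines, CXCL16 and CCL28 differed by 0.12 each, CCL5 by -0.05 and CCL20 by -0.17.

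**Figure D5:**
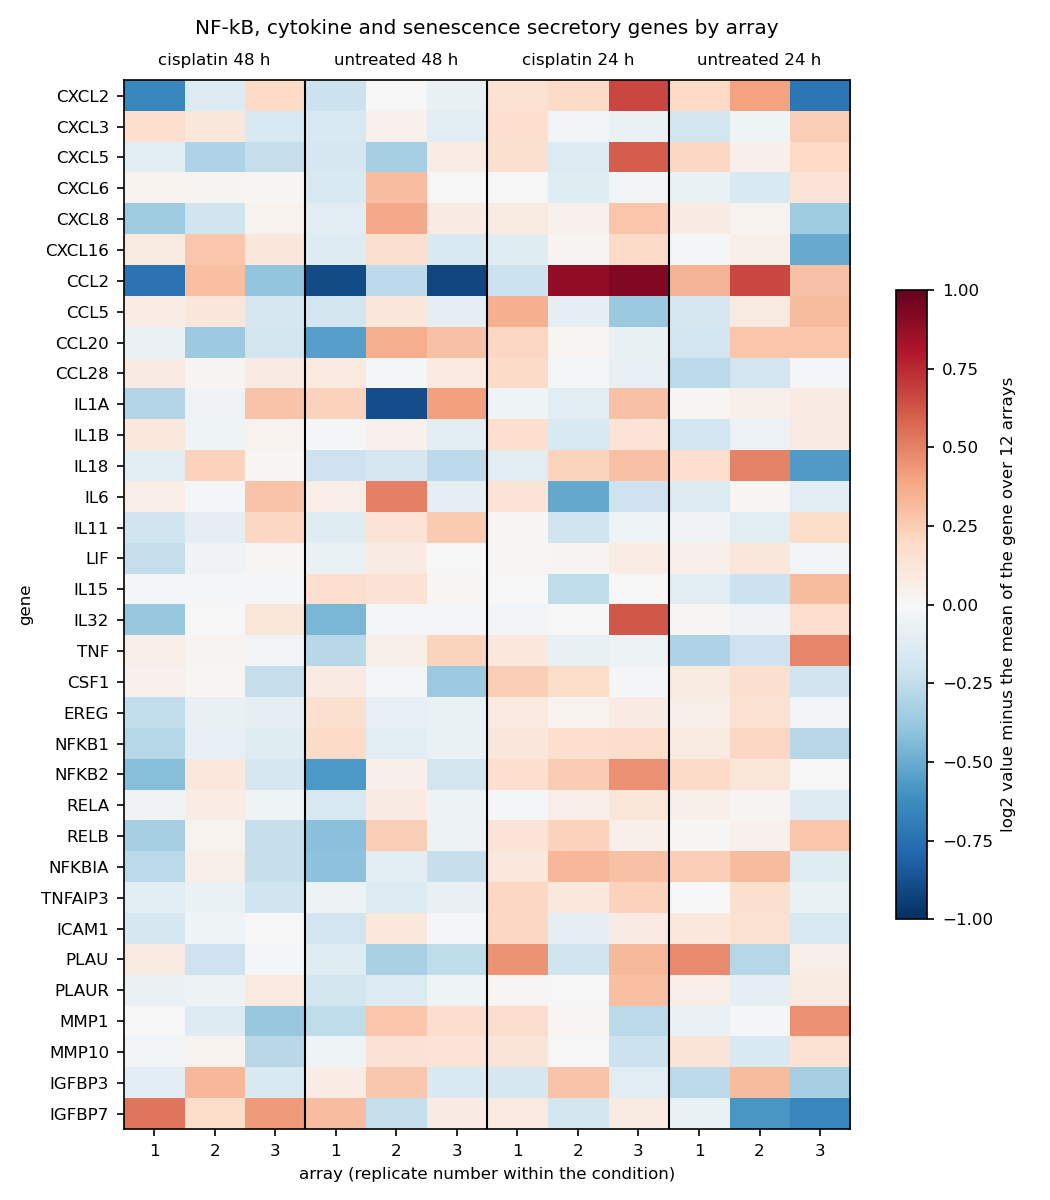
Log2 value of each of the 34 genes on each of the 12 arrays minus the mean of the gene over all arrays (colour, cut at 1 and -1), with the conditions cisplatin 48 h, untreated 48 h, cisplatin 24 h and untreated 24 h from left to right. CCL2, NFKB2 and NFKBIA are mostly blue at 48 h and red at 24 h, and the IGFBP3 row is red on the replicate 2 array of each condition.

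Genes around the pathway, taken from lists that hold none of the 34, were read in the same fits. Of 54 other NF-kB pathway genes (kinases, adaptors, further subunits and targets), 45 were measured, and 0 were called in either direction over both times, with 0 at an unadjusted p under 0.05 in limma (3.33% of all genes). Their median was 0.07 against 0.01 over all genes, with 37 of 45 positive (53.8% of all genes). At 48 h it was 0.00542 against -0.02, with 26 of 45 positive (42.2% of all genes). At 24 h it was 0.12 against 0.03, with 37 of 45 positive (57.9%). That comparison and the one over both times hold untreated 24 h replicate 3, the array unlike the rest. Over both times the smallest p-values were those of TAB3 (0.20 ± 0.10 SE), TLR3 (0.36 ± 0.19) and TNFAIP8 (0.19 ± 0.12), each at an adjusted p of 0.991 in limma. Of the 24 genes of other tissues that served to compare low signals, 5 were positive over both times, with a median of -0.07. The share over all genes mixes high and low signals, and the part of signal level in these counts was not tested.

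Between the times, 0 of these 45 were called, while 6 had an unadjusted p under 0.05, 3 in each direction (13.3%, against 6.13%). PTGS2, the cyclooxygenase COX-2 and an NF-kB target, was 0.78 ± 0.17 (SE) higher at 48 h (mean 8.84 at 48 h and 8.06 at 24 h, adjusted p = 0.109 in limma), whereas TRAF1, an adaptor and NF-kB target, differed by -0.40 ± 0.11 and the kinase IRAK2 by -0.28 ± 0.07.

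Of 40 receptors and antagonists of the listed ligands, 34 were measured and 0 were called for treatment or time. Over both times, 2 had an unadjusted p under 0.05 (5.88%, against 3.33%), both lower with cisplatin: IL1RN, the IL-1 receptor antagonist (5.47 in cisplatin-treated and 5.87 in untreated cells), and IL20RB (5.68 and 6.03). Both signals lay in the range of genes of other tissues. Between the times 3 had an unadjusted p under 0.05, 2 of them higher and 1 lower at 48 h (8.82%, against 6.13%). EGFR, the receptor of EREG and AREG, differed by -0.24 ± 0.09 (SE) between 48 h and 24 h, the TNF receptor TNFRSF1A by 0.19 ± 0.07 and the chemokine receptor ACKR3 by 0.20 ± 0.07 (limma, adjusted p = 0.585, 0.552 and 0.512).

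Of 46 other secretory genes of senescence, 35 were measured and 0 were called. GDF15, which the study lists as over-expressed after cisplatin, is in this list but was not among the 35 measured. With cisplatin, ANGPTL4 was higher by 0.19 ± 0.09 (SE) and the chemokine CCL8 differed by -0.31 ± 0.13 (SE) at an unadjusted p under 0.05 (5.71%, against 3.33%), and the median of the list was 0.00478 against 0.00891 over all genes. Between the times 5 of the 35 had an unadjusted p under 0.05 (14.3%, against 6.13%), 4 of them higher and 1 lower at 48 h. Those with the smallest p were the protease CTSB (0.21 ± 0.06 SE), osteopontin SPP1 (0.37 ± 0.11) and fibronectin FN1 (0.43 ± 0.15), at adjusted p-values of 0.332, 0.354 and 0.537 in limma. The chemokine CCL26 (0.29 ± 0.11) and STC1 (-0.24 ± 0.10), named after their values were seen, made up the rest. The median of the list was 0.0148 at 48 h relative to 24 h, against 0.0160 over all genes, and 19 of 35 differences were positive.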

How the data were processed

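RNA of A549 cells was measured on 12 Affymetrix Human Exon arrays. Per the submitters' processing notes and the methods, the authors used Expression Console and Power Tools and deposited RMA-normalized log2 values per transcript cluster (22011 clusters), between 2.14 and 14.31. The study discarded 1 unnamed array set of 24 h. All 12 arrays were used here. Clusters were named through the platform's probe table, updated by RefSeq: 14432 had 1 symbol, 2408 several (left out) and 5171 were not listed. The brightest cluster per gene left 14232 genes. In R 4.3.3 with limma 3.58.1, a model of treatment and time and one of 4 group means were fitted over all genes, with Benjamini-Hochberg adjustment, called at an adjusted p under 0.05. The members and lists were chosen with earlier results of these data known. Values by array are given for the genes with an unadjusted p under 0.05 in any contrast, filled up to 10. The deviations of same-numbered cisplatin and untreated arrays correlated at 0.313, 0.599 and 0.17 at 48 h, and at -0.336, 0.207 and -0.389 at 24 h. The labels give no source for a pairing, and the block was run as an alternative. The procedure was tested on simulated data. Alternatives covered normalization, variance model, array weights, a replicate block, gene filters, cluster choice, the threshold and leaving out each array.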

Additional observations from a re-analysis of the deposited data

Results flagged for a closer look

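Within the 6 arrays of each treatment, 5 of 68 sets of values (34 genes, cisplatin-treated and untreated) held an array far from the rest by Dixon's gap criterion, which flags about 1 in 20 by chance. LIF read 9.129 on cisplatin 48 h replicate 1, with the other cisplatin arrays between 9.335 and 9.446. IL15 read 6.537 on cisplatin 24 h replicate 2, with the others between 6.766 and 6.790. Among untreated arrays, replicate 2 at 48 h held the lowest IL1A, at 4.677 (others 5.586 to 5.971), and the highest IL6, at 6.355 (others 5.715 to 5.914), and replicate 1 at 48 h held the lowest IL32, at 8.276 (others 8.698 to 8.896).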

How the results depend on the processing

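For cisplatin over both times and at 48 h, and for the difference between the times, 0 of 34 genes passed an adjusted p under 0.05 in limma under every alternative run. At 24 h the count was 4 with array weights (IGFBP7 and CCL28 higher, IL6 and IL18 lower), where 2254 of all genes passed. IL18 at 24 h differed by -0.28 with these weights and by 0.10 without them. The estimate of these weights, in the model of 4 group means, did not converge and ranged from 0.151 to 17.4. In the model of treatment and time, used for 48 h minus 24 h, the weights converged and ranged from 0.154 to 3.43. For 48 h minus 24 h the count was 0 to 1 when single arrays were left out (CCL2), 6 with array weights (CCL2, NFKB1, NFKB2, NFKBIA and TNFAIP3 lower, IGFBP7 higher), where 312 of all genes passed, 4 at an unadjusted p under 0.005 (1.5% of all genes), and 2 with the replicate block (CCL2, adjusted p = 0.00813, and IGFBP7, adjusted p = 0.0358), where 87 of all genes passed. Of 18 same-numbered pairs of arrays, 10 had deviations correlated above 0.1, from -0.389 to 0.636, so the numbers were not taken to pair the samples across the 4 conditions. For cisplatin over both times, at 24 h and at 48 h, and for the difference between the times, the block gave 0 of 34 genes. After the data were seen, the count at an unadjusted p under 0.05 was also taken for time: 11 without untreated 24 h replicate 3 (7.01% of all genes), 11 after median centring (5.73%) and 14 after quantile normalization (7.9%), against 8 (6.13%). After quantile normalization it was 3 for cisplatin over both times (CXCL3, CCL28 and IGFBP7, all higher, with 3.74% of all genes), against 1 (3.33%). At 24 h the 1 gene was CCL28 in place of IGFBP7 after quantile normalization (3.25% of all genes) and without untreated 24 h replicate 3 (1.24%), and after median centring there were 0 (3.01%). For the difference between the times there were 0 after quantile normalization (1.79%) or median centring (0.97%), and without untreated 24 h replicate 3 the 1 gene was IL18 in place of CXCL8 (0.927%). The cause of these shifts was not tested. The time differences of CCL2, CXCL5, NFKB2, NFKBIA, RELB, TNFAIP3, PLAU, IL6 and IGFBP7, the cisplatin differences of IGFBP7 over both times and at 24 h and the difference of effects of CXCL8 kept their sign under every alternative run. The median over both times, 0.03, was 0.08 where only genes above the median level were kept and -0.01 with array weights. The median at 24 h, 0.08, was 0.02 without untreated 24 h replicate 3 (25 genes positive, against 24) and 0.03 after quantile normalization (22 positive). It was 0.03 after median centring (19 positive) and 0.000273 with array weights. The median at 48 h, -0.01, was -0.07 without untreated 48 h replicate 1 and 0.06 without untreated 48 h replicate 2. Signals below the upper quartile of genes of other tissues limit what could be seen for 14 genes. TNFAIP3, RELB, IL32, CCL5, CXCL16 and IL11 also lay below the highest of those genes.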
